A study of Mus musculus with 12 samples.

Results

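Semaphorins, ephrins, Slits and netrins are ligands that steer growing axons, and plexins, neuropilins, Eph receptors and Robos are the receptors that read them. The genes were taken by symbol from a table of RNA sequencing values: classes 3 to 7 of the semaphorins, the plexins, neuropilins 1 and 2, the Slits, Robos and netrins, the EphA and EphB receptors and the ephrins. The rule found 64 of the table's 24692 entries, each present once. They comprised 7 class 3 semaphorins, 13 semaphorins of classes 4 to 7, 9 plexins, 2 neuropilins, 3 Slits, 4 Robos, 4 netrins, 5 ephrin-A ligands, 3 ephrin-B ligands, 9 EphA receptors and 5 EphB receptors.

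The cells came from back skin of male mice carrying a Sox2:GFP and an aSMA:dsRed reporter, taken in early anagen at about postnatal day 26 to 27. Early anagen is the start of hair follicle growth. Both reporters were present in the mice of all 4 sorted populations, and no population came from mice without them. The populations were dermal papilla, the signalling cell cluster at the follicle base, dermal sheath, the connective tissue around the follicle, hair follicle dermal stem cells, and interfollicular dermis, the connective tissue between follicles. Each population had 3 libraries, numbered 1, 2 and 4 for dermal papilla, 1, 4 and 5 for dermal sheath, 1, 2 and 4 for dermal stem cells, and 1, 2 and 6 for interfollicular dermis. The title of dermal sheath replicate 1 has an added letter that the labels do not explain. GFP followed Sox2 and dsRed followed the smooth muscle actin promoter, and sorting also used antibodies that the labels do not name, so each population is defined by its gate. The populations are called papilla, sheath, stem cells and interfollicular dermis below.

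The libraries were checked against the labels before the guidance genes were read. Summed FPKM per library ran from 181700 to 262700, and 10711 to 11810 genes reached 1 FPKM. Sox2 averaged 3.57 FPKM in papilla, 0.153 in sheath, 1.14 in stem cells and 0.241 in interfollicular dermis. Its difference between papilla and stem cells did not pass (limma adjusted p = 0.227). Of 12 papilla markers, 3 were higher and 0 lower in papilla than in stem cells, and 10 were higher and 0 lower in papilla than in sheath. Acta2, which encodes smooth muscle actin, averaged 45.4 FPKM in papilla, 49.3 in sheath, 872 in stem cells and 8.7 in interfollicular dermis, and all 8 genes of a sheath and smooth muscle list were lower in the libraries labelled sheath than in stem cells. The summed level of 8 fibroblast markers ran from 13200 to 23700 FPKM in papilla, 969 to 1910 in sheath, 9100 to 11600 in stem cells and 814 to 1530 in interfollicular dermis. For 10 keratinocyte markers the sums were 1220 to 3720, 1700 to 1800, 710 to 1380 and 1660 to 1980 FPKM in the same order, with no marker at 0 in any library. The members of both lists did not all move together. Trp63, a regulator of basal keratinocytes, averaged 16.1 FPKM in papilla, 121 in sheath, 15.5 in stem cells and 89.0 in interfollicular dermis, while the basal keratin Krt14 averaged 106, 79.2, 68.7 and 226 FPKM in that order, and Krt10, a keratin of the upper epidermis, 1530, 53.4, 361 and 167 FPKM. In sheath 6 of the 10 keratinocyte markers were higher and 1, Krt10, was lower than in stem cells, and 7 were lower in stem cells than in interfollicular dermis. Of the fibroblast markers 7 of 8 were lower in sheath than in stem cells, and Dpp4 was higher (14.6 against 3.15 FPKM). The low sums of fibroblast markers go against the labels sheath and interfollicular dermis, and every result on them below is given for the libraries so labelled.

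Axon guidance proteins are not limited to nerves. Secreted Slits bind Robo receptors and usually repel, netrins bind Dcc, neogenin and Unc5 receptors and can attract or repel, and class 3 semaphorins bind neuropilins, which pair with plexins to pass the signal on. Membrane-bound ephrins and Eph receptors signal in both directions where cells touch and help to keep neighbouring cell groups apart. In skin, members of these families guide sensory nerves and blood vessels.

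Of the 64 genes, 52 reached 1 FPKM in at least 3 libraries and were tested, and none of the 52 passed that filter through 1 population alone. The other 12 were Slit1, Robo3, Ntn3, Ntn5, Sema4f, Sema5b, Plxna4, Plxnb3, Epha5, Epha6, Epha8 and Epha10, whose highest library values ran from 0.0188 to 2.24 FPKM. Levels are FPKM, which are scaled to transcript length, and fold changes are differences of mean log2(FPKM + 1), which understates changes of weakly expressed genes. By limma's F test over the 4 populations, 35 of the 52 genes differed at an adjusted p under 0.05 (67.3%), against 56.8% of all 12774 genes tested. The share of all genes that passed, against which the counts below are to be read, was 8.69% for papilla against stem cells, 43.9% for sheath against stem cells and 49.8% for papilla against sheath. It was 37.6% for stem cells, 42.3% for papilla and 2.26% for sheath against interfollicular dermis. The population with the highest mean was papilla for 7 of the 52 genes, sheath for 19, stem cells for 18 and interfollicular dermis for 8. This count includes the 17 genes that the F test did not call. The same count over all genes tested was not made, so this split is not read as particular to the 52. In sorted bulk samples, fewer expressing cells and less RNA per cell cannot be told apart.

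**Figure D1:**
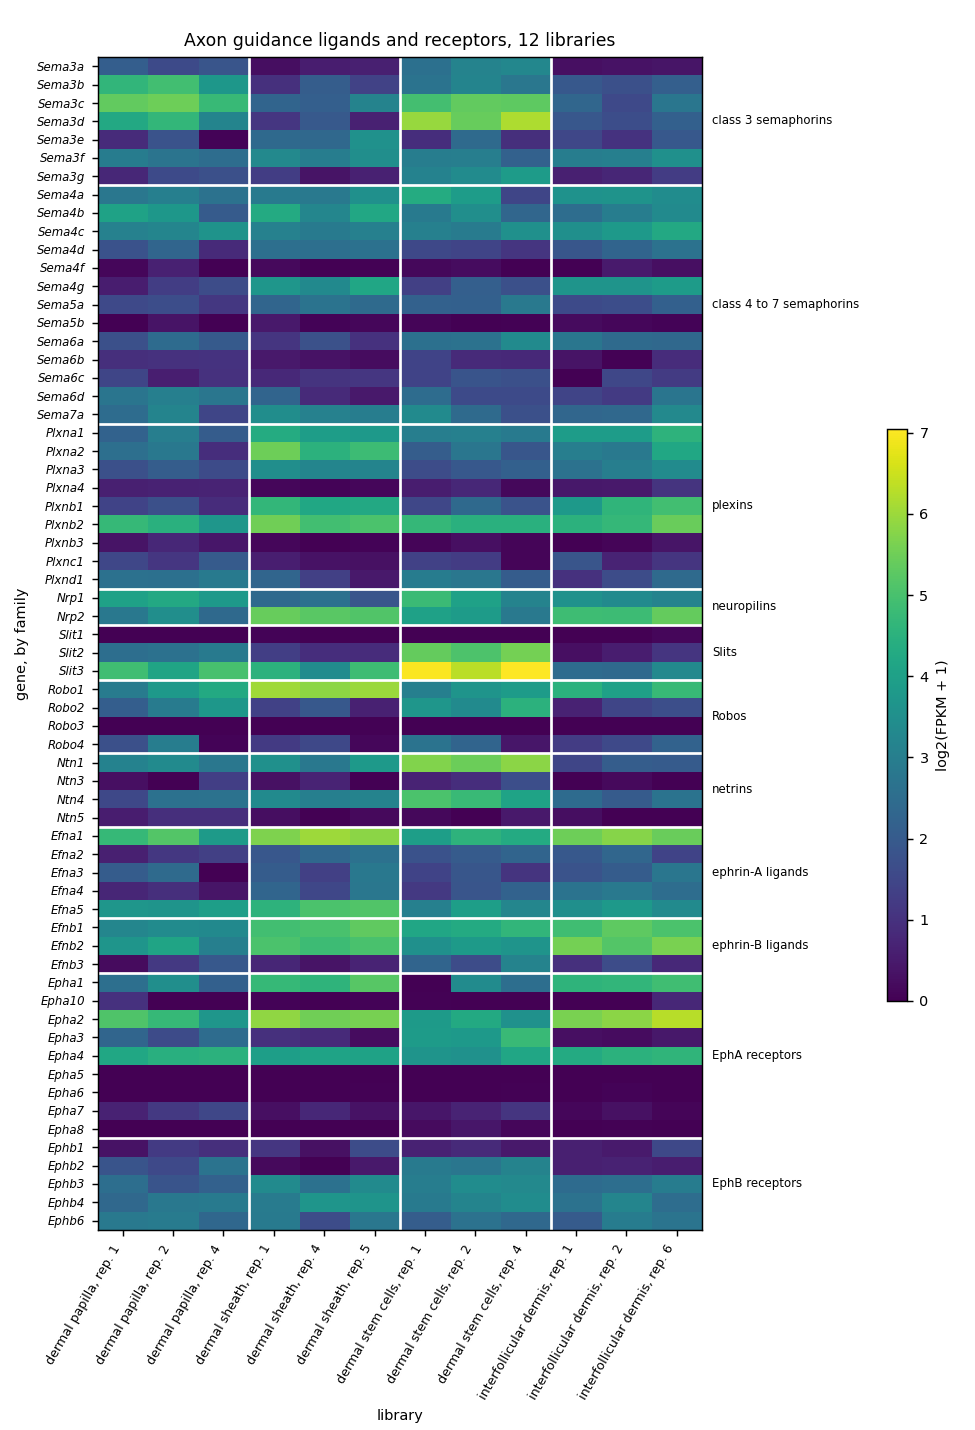
Levels of the 64 axon guidance ligand and receptor genes (rows, grouped by family) in the 12 libraries (columns, grouped by population), as log2(FPKM + 1). Slit2, Slit3, Ntn1, Ntn4 and Sema3d are brightest in the 3 stem cell libraries, and Plxna2 in the 3 sheath libraries. Plxnb1, Nrp2 and Sema4g are brightest in the sheath and interfollicular dermis libraries.

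Stem cells had the highest levels of both expressed Slit ligands and of both tested netrins. Slit2 (chromosome 5, 47981291 to 48307735 of GRCm38.p6), a secreted ligand of the Robo receptors, had 4.82, 5.17 and 6.41 FPKM in papilla, 1.46, 0.902 and 0.847 FPKM in sheath, 40.6, 32.7 and 46.5 FPKM in stem cells, and 0.219, 0.479 and 1.13 FPKM in interfollicular dermis. All 3 stem cell libraries lay above the other 9, and papilla lay above sheath and interfollicular dermis without overlap. Slit2 was lower in papilla than in stem cells (log2 fold change -2.66, SE 0.27, adjusted p = 0.000149), and its level in sheath was below that of stem cells by more (log2 fold change -4.30, SE 0.27, adjusted p = 5.3e-07). It was higher in stem cells than in interfollicular dermis (log2 fold change 4.69, SE 0.27, adjusted p = 2.42e-07). Between sheath and interfollicular dermis the difference did not pass (0.39, adjusted p = 0.551).

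Slit3 (chromosome 11, 35121456 to 35708507), another secreted Robo ligand and the one of the 64 genes with the highest level in a single library, had 28.8, 16.3 and 31.1 FPKM in papilla, 22.2, 9.54 and 28.2 FPKM in sheath, 127, 78.3 and 131 FPKM in stem cells, and 4.5, 4.27 and 9.01 FPKM in interfollicular dermis. The stem cell libraries again stood above all others, papilla and sheath overlapped, and interfollicular dermis was lowest. The fold change was -2.11 for papilla against stem cells (SE 0.40, adjusted p = 0.00702), -2.51 for sheath against stem cells (adjusted p = 0.000333) and 4.05 for stem cells against interfollicular dermis (adjusted p = 1.13e-05). For sheath against interfollicular dermis it was 1.54 and missed the threshold (adjusted p = 0.0707, unadjusted 95% interval 0.68 to 2.40). Slit1, the remaining ligand, was at or below 0.0917 FPKM in every library.

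Ntn1 (chromosome 11, 68209364 to 68386826), a secreted netrin that is recognised by Dcc, neogenin and Unc5 proteins, had 7.76, 9.33 and 5.93 FPKM in papilla, 10.5, 6.09 and 12.7 FPKM in sheath, 51.4, 43.5 and 55.6 FPKM in stem cells, and 1.79, 3.21 and 3.05 FPKM in interfollicular dermis. Every stem cell library lay above every other library, while papilla and sheath overlapped and interfollicular dermis lay below both. Ntn1 was lower in papilla than in stem cells (log2 fold change -2.57, SE 0.28, adjusted p = 0.000219) and in sheath than in stem cells (-2.30, adjusted p = 5.01e-05), and higher in stem cells than in interfollicular dermis (3.81, adjusted p = 1.21e-06). Ntn4 (chromosome 10, 93641049 to 93745972), a netrin that binds laminin in basement membranes, had 1.87, 5.13 and 5.3 FPKM in papilla, 9.44, 7.3 and 7.93 FPKM in sheath, 31.9, 26.2 and 16.1 FPKM in stem cells, and 4.51, 3.1 and 5.38 FPKM in interfollicular dermis. The stem cell libraries were highest and sheath came next, with papilla and interfollicular dermis overlapping below. Its fold changes were -2.37, adjusted p = 0.00139 for papilla against stem cells, -1.43, adjusted p = 0.00474 for sheath against stem cells, and 2.24, adjusted p = 0.00032 for stem cells against interfollicular dermis. Ntn3 did not exceed 2.24 FPKM, and its locus overlaps that of Tbc1d24, so reads of the pair may be mixed where strand was not used.

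Robo1 and Robo2, the receptors that Slits bind, differed in where they were highest. Robo1 (chromosome 16, 72027518 to 73047491) had 6.69, 12.9 and 18.3 FPKM in papilla, 64.8, 56.9 and 62.7 FPKM in sheath, 7.23, 11.5 and 13.7 FPKM in stem cells, and 21.8, 15.4 and 25.7 FPKM in interfollicular dermis. The sheath libraries lay far above the other 9, interfollicular dermis lay above stem cells, and papilla overlapped both of these. Robo1 was higher in sheath than in stem cells (log2 fold change 2.44, SE 0.33, adjusted p = 9.98e-05), and papilla lay below sheath (log2 fold change -2.29, SE 0.33, adjusted p = 0.00014), and its difference between papilla and stem cells did not pass (0.15, adjusted p = 0.824, unadjusted 95% interval -0.56 to 0.86). Robo2 (chromosome 16, 73891976 to 75447443) had 3.34, 6.65 and 12.3 FPKM in papilla, 1.58, 2.82 and 0.556 FPKM in sheath, 11.9, 9.31 and 22 FPKM in stem cells, and 0.588, 1.75 and 2.21 FPKM in interfollicular dermis. Stem cells and papilla overlapped and both lay above the 6 other libraries. Robo2 was lower in sheath than in stem cells (log2 fold change -2.55, SE 0.47, adjusted p = 0.00099) and higher in stem cells than in interfollicular dermis (2.59, adjusted p = 0.00115). Robo4, a receptor of blood vessels, had 2.32, 6.89 and 0.0396 FPKM in papilla, 1.31, 1.89 and 0.0866 FPKM in sheath, 5.48, 3.82 and 0.336 FPKM in stem cells, and 1.4, 1.94 and 3.67 FPKM in interfollicular dermis. It varied as much within populations as between them and passed in none of the 6 comparisons, and the sum of 10 endothelial markers ran from 13.1 to 157 FPKM in papilla, 11.2 to 63.3 in sheath, 36.4 to 111 in stem cells and 24.2 to 113 in interfollicular dermis.

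Like Slit2, Slit3, Ntn1 and Ntn4, the 8 smooth muscle and sheath markers were highest in stem cells by summed level. Their summed level ran from 75.2 to 197 FPKM in papilla, 116 to 346 in sheath, 1700 to 1830 in stem cells and 17.5 to 39.8 in interfollicular dermis. In papilla 7 of the 8 were lower than in stem cells. Between papilla and sheath their sums overlapped, and 1 of the 8 was lower in papilla. Slit2 was higher in papilla than in sheath (log2 fold change 1.65, adjusted p = 0.000379). The part of these markers in the Slit and netrin differences was not tested.

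**Figure D2:**
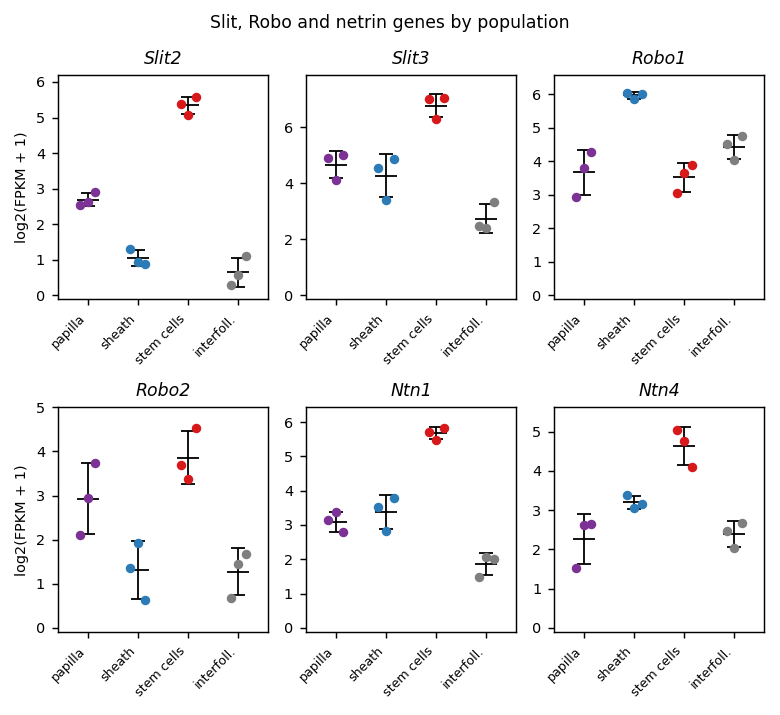
Slit2, Slit3, Robo1, Robo2, Ntn1 and Ntn4 as log2(FPKM + 1) by population, where each point is 1 library and bars are the mean and SD of 3 libraries. Slit2, Slit3, Ntn1 and Ntn4 are highest in all 3 stem cell libraries, and Robo1 is highest in all 3 sheath libraries.

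Promoters of genes that were highest in stem cells (Slit2, Slit3, Ntn4 and Sema3d) and of genes that were highest in sheath or interfollicular dermis (Robo1 and Plxnb1) are shown as examples of genes from either side of the difference between populations. Each is the 250 bases before a RefSeq transcription start of the GRCm38.p6 assembly, read 5′ to 3′, with capitals marking a GC box, GGGCGG or its reverse complement CCGCCC. The windows of Slit2, Robo1 and Plxnb1 lie inside the annotated gene, before a start other than its first.
Slit2, chr5:47982905-47983154, + strand: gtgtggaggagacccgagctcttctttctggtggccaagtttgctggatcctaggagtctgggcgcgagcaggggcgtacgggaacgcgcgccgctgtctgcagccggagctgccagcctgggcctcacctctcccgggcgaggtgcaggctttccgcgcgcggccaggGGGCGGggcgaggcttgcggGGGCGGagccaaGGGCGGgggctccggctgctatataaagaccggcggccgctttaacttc
Slit3, chr11:35121206-35121455, + strand: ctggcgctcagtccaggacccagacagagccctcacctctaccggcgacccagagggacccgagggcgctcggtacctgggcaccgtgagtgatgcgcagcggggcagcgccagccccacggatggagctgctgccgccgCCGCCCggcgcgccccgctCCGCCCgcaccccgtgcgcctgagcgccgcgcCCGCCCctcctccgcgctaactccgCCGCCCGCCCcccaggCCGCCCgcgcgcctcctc
Ntn4, chr10:93640799-93641048, + strand: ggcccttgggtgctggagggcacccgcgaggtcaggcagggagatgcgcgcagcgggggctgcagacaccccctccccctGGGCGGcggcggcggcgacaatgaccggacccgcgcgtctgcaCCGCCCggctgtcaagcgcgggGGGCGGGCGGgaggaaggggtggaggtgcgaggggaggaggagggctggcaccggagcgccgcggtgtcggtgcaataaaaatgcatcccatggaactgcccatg
Sema3d, chr5:12382916-12383165, + strand: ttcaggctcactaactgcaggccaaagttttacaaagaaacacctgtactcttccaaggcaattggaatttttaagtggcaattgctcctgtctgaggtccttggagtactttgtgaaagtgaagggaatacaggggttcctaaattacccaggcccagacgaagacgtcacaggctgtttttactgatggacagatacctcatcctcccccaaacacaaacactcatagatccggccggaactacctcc
Robo1, chr16:72662899-72663148, + strand: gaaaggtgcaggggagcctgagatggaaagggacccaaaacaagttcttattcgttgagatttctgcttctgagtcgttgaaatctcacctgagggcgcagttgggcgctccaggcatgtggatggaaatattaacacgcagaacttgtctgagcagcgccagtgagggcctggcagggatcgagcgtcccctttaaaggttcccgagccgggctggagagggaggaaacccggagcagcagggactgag
Plxnb1, chr9:109095186-109095435, + strand: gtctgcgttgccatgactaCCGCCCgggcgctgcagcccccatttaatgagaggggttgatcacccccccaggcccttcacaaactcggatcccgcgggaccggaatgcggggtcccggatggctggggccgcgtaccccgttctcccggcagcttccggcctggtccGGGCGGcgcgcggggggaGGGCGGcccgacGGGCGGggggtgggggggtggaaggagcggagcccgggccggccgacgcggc
The window of Slit2 held 3 GC boxes and a TATA box, TATAAA, that of Slit3 held 6 GC boxes, and those of Ntn4 and Plxnb1 held 4 each, overlapping matches counted separately. The windows of Sema3d and Robo1 held none, so the motif was present and absent on both sides. Of the 64 genes 56 had an entry in the set of promoters used, with 72 promoters. Of these 72, 70.8% held a GC box on either strand, against 32.7% of all 32851 promoters and 42.6% of the 21263 promoters of coding genes. TATAAA stood in 2.78% of the 72 and 12.4% of all promoters, and the E-box CANNTG in 50% of the 72 and 66.2% of all. GGAATG, a motif of TEAD factors, stood in 11.1% of the 72 and 12.6% of all, and GACCACCCA, a motif of GLI factors, in none of the 72 and 0.225% of all. The median G and C content was 64.2% in the 72 windows and 52.4% in all windows.

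Class 3 semaphorins, the secreted ligands that bind neuropilins, were mostly higher in stem cells and papilla than in the libraries labelled sheath and interfollicular dermis. The summed level of the 7 genes ran from 55.9 to 110 FPKM in papilla, 20.9 to 32.0 in sheath, 117 to 142 in stem cells and 15.7 to 27.9 in interfollicular dermis. All 7 were tested: 1 was higher and 3 were lower in papilla than in stem cells, 5 were lower in sheath than in stem cells, and 4 were higher and 1 lower in papilla than in sheath. Against interfollicular dermis, 5 were higher in stem cells and 4 in papilla.

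Sema3d (chromosome 5, 12383161 to 12588953) had 18.1, 24.5 and 8.05 FPKM in papilla, 1.18, 2.9 and 0.58 FPKM in sheath, 61.2, 41.3 and 71.9 FPKM in stem cells, and 2.77, 2.17 and 3.43 FPKM in interfollicular dermis. The stem cell libraries were highest and the papilla libraries next, without overlap, and sheath and interfollicular dermis overlapped below. Sema3d was lower in sheath than in stem cells (log2 fold change -4.60, SE 0.40, adjusted p = 5.15e-06), the largest fold change of the 52 genes in that comparison, and higher in stem cells than in interfollicular dermis (log2 fold change 3.94, SE 0.40, adjusted p = 1.62e-05). Sema3c (chromosome 5, 17574816 to 17730268) had 39.9, 44.2 and 25.8 FPKM in papilla, 3.84, 3.42 and 7.84 FPKM in sheath, 29.4, 39.8 and 38 FPKM in stem cells, and 4.0, 1.95 and 5.8 FPKM in interfollicular dermis. Papilla and stem cells overlapped and lay above every library of the other populations. It was higher in papilla than in sheath (log2 fold change 2.68, SE 0.35, adjusted p = 7.06e-05) and than in interfollicular dermis (log2 fold change 2.98, SE 0.35, adjusted p = 5.22e-05), while papilla against stem cells gave 0.01 (adjusted p = 0.987, unadjusted 95% interval -0.74 to 0.77).

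Sema3b (chromosome 9, 107597674 to 107609241) was the only one of the 52 genes that was higher in papilla than in stem cells by the test. It had 24, 29.3 and 12.3 FPKM in papilla, 0.978, 3.24 and 1.63 FPKM in sheath, 5.47, 8.05 and 5.94 FPKM in stem cells, and 2.83, 2.29 and 3.4 FPKM in interfollicular dermis. Papilla lay above all other libraries, stem cells lay above sheath and interfollicular dermis, and these overlapped. The fold change was 1.54 for papilla against stem cells (SE 0.35, adjusted p = 0.0173), 2.94 against sheath (adjusted p = 3.84e-05) and 2.5 against interfollicular dermis (adjusted p = 0.000182). Lsmem2 overlaps its locus in the RefSeq annotation.

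The sums of 6 melanocyte markers and 8 Schwann cell markers were also higher in papilla than in stem cells. They ran from 189 to 794 FPKM against 16.6 to 89.0 FPKM for melanocyte markers, and from 27.7 to 129 FPKM against 8.9 to 24.9 FPKM for Schwann cell markers. In each list 3 genes were higher by the test and none lower, as were 3 of the 10 keratinocyte markers, and Egfl8 was at 0 in all 3 stem cell libraries. In interfollicular dermis the melanocyte sum ran from 159 to 916 FPKM and the Schwann cell sum from 32.7 to 45.2 FPKM. In sheath these sums ran from 19.5 to 28.6 FPKM and from 23.0 to 33.3 FPKM. The part of these markers in the Sema3b difference was not tested.

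Sema3a, a repellent of sensory axons, and Sema3g were both highest in stem cells. Sema3a had 3.27, 2.02 and 2.63 FPKM in papilla, 0.188, 0.467 and 0.531 FPKM in sheath, 5.06, 7.89 and 8.5 FPKM in stem cells, and 0.229, 0.278 and 0.322 FPKM in interfollicular dermis. The populations followed each other without overlap, except that sheath and interfollicular dermis overlapped. Sema3g had 0.738, 2.02 and 2.28 FPKM in papilla, 1.43, 0.301 and 0.578 FPKM in sheath, 7.64, 9.57 and 13.6 FPKM in stem cells, and 0.538, 0.702 and 1.38 FPKM in interfollicular dermis. The stem cell libraries lay above the other 9, which overlapped. Sema3a was lower in sheath than in stem cells (-2.53, adjusted p = 1.82e-05), and Sema3g was lower in papilla than in stem cells (-2.09, adjusted p = 0.00355). Sema3e, a ligand of plexin D1, averaged 1.11 ± 1.23 FPKM in papilla, 6.43 ± 3.75 in sheath, 2.09 ± 2.04 in stem cells and 1.91 ± 0.899 in interfollicular dermis, and was lower in papilla than in sheath (-1.88, adjusted p = 0.0102), a call lost without sheath replicate 5 (0.0513) and otherwise kept (range 0.00451 to 0.0513 over 20 alternatives). Sema3f, at 5.7 ± 0.997 FPKM in papilla, 8.63 ± 1.64 in sheath, 5.84 ± 1.99 in stem cells and 8.3 ± 2.11 in interfollicular dermis, passed in no comparison.

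Semaphorins of classes 4 to 7 are mostly anchored in the membrane. Of 13 genes 11 were tested, of which 2 were higher and 1 was lower in sheath than in stem cells, and none passed between papilla and stem cells or between sheath and interfollicular dermis. Sema4g (chromosome 19, 44988743 to 45003397) had 0.49, 1.42 and 2.11 FPKM in papilla, 12.1, 9.1 and 17.1 FPKM in sheath, 1.52, 3.38 and 2.3 FPKM in stem cells, and 11.6, 11.5 and 13.7 FPKM in interfollicular dermis. The sheath and interfollicular dermis libraries overlapped and lay above the 6 others. Sema4g was lower in papilla than in sheath (log2 fold change -2.58, SE 0.33, adjusted p = 5.93e-05) and than in interfollicular dermis (log2 fold change -2.56, SE 0.33, adjusted p = 9.39e-05), and higher in sheath than in stem cells (log2 fold change 2.02, SE 0.33, adjusted p = 0.000388). Sema4d, a ligand of plexin B1, was higher in sheath (5.03 ± 0.11 FPKM) than in stem cells (1.57 ± 0.385 FPKM), with log2 fold change 1.24, SE 0.35, adjusted p = 0.0123. Sema6a was lower in sheath (1.49 ± 0.724 FPKM) than in stem cells (6.57 ± 2.43 FPKM), with log2 fold change -1.59, SE 0.31, adjusted p = 0.00147. The other most abundant members were Sema4b, with population means of 6.86 to 14.9 FPKM, and Sema4c, with 7.18 to 13.8 FPKM, and neither passed in any comparison. Sema6c was listed at 0 in interfollicular dermis replicate 1 and at 1.85 and 1.32 FPKM in the other 2 libraries, and passed in none.

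The 2 neuropilins, which bind class 3 semaphorins and also vascular endothelial growth factor, were highest in different populations. Nrp1 (chromosome 8, 128358591 to 128505476) had 15.3, 18.2 and 13 FPKM in papilla, 4.28, 5.2 and 2.64 FPKM in sheath, 27, 15.5 and 7.92 FPKM in stem cells, and 10.8, 9.43 and 7.86 FPKM in interfollicular dermis. Papilla and stem cells overlapped, and all sheath libraries lay below all libraries of the other populations. Nrp1 was lower in sheath than in stem cells (log2 fold change -1.71, SE 0.36, adjusted p = 0.00225) and higher in papilla than in sheath (log2 fold change 1.74, SE 0.36, adjusted p = 0.0017). The summed level of 6 immune cell markers ran from 27.8 to 1040 FPKM in stem cells and from 66.6 to 287 FPKM in papilla. Its highest library value was 107 FPKM in sheath and 73.6 FPKM in interfollicular dermis. Of the 6 markers, 3 were lower and 0 higher in sheath than in stem cells. In papilla 2 were higher and 0 lower than in sheath. The part of these markers in the Nrp1 differences was not tested. Nrp2 (chromosome 1, 62703317 to 62818692) had 6.07, 10.2 and 4.29 FPKM in papilla, 41.5, 36.8 and 34 FPKM in sheath, 15.5, 13.7 and 6.22 FPKM in stem cells, and 28, 27.2 and 40.3 FPKM in interfollicular dermis. Sheath and interfollicular dermis overlapped and lay above all libraries of papilla and stem cells. Nrp2 was higher in sheath than in stem cells (log2 fold change 1.67, SE 0.34, adjusted p = 0.00172), lower in papilla than in sheath (log2 fold change -2.36, SE 0.34, adjusted p = 0.000142) and below interfollicular dermis there as well (log2 fold change -2.11, SE 0.34, adjusted p = 0.000447).

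Most tested plexins, the receptors that carry the semaphorin signal into the cell, were higher in sheath than in stem cells. The summed level of the 9 genes ran from 29.3 to 47.5 FPKM in papilla, 92.7 to 148 in sheath, 39.7 to 49.6 in stem cells and 65.1 to 128 in interfollicular dermis. Of the 7 tested, 4 were higher and 1 was lower in sheath than in stem cells, and 2 were higher and 5 lower in papilla than in sheath. None of the 7 passed between papilla and stem cells, with fold changes of -0.56 to 0.63. Plxnb1 (chromosome 9, 109093849 to 109119915), a receptor of Sema4d, had 1.69, 2.3 and 0.875 FPKM in papilla, 24.4, 17.4 and 18 FPKM in sheath, 1.81, 4.26 and 2.52 FPKM in stem cells, and 12.8, 23.4 and 29.2 FPKM in interfollicular dermis. The 6 sheath and interfollicular dermis libraries overlapped and lay above all others. Plxnb1 was lower in papilla than in sheath (log2 fold change -3.02, SE 0.34, adjusted p = 2.76e-05), lower in papilla than in interfollicular dermis (log2 fold change -3.08, SE 0.34, adjusted p = 3.73e-05), and in stem cells it was below interfollicular dermis (log2 fold change -2.53, SE 0.34, adjusted p = 0.000133).

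Plxna2 (chromosome 1, 194619791 to 194816869), a partner of neuropilins, had 4.9, 6.07 and 0.88 FPKM in papilla, 44.3, 22 and 27.7 FPKM in sheath, 3.26, 5.84 and 2.66 FPKM in stem cells, and 7.09, 6.23 and 17.3 FPKM in interfollicular dermis. Sheath lay above every other library, interfollicular dermis came next, and papilla and stem cells overlapped below. Plxna2 was higher in sheath than in stem cells (log2 fold change 2.71, SE 0.50, adjusted p = 0.000995), and its difference between sheath and interfollicular dermis missed the threshold (log2 fold change 1.60, SE 0.50, adjusted p = 0.133). Plxna1 and Plxna3, which also pair with neuropilins, averaged 4.6 ± 2.15 FPKM in papilla, 15.6 ± 3.32 in sheath, 6.93 ± 0.483 in stem cells and 16.7 ± 4.84 in interfollicular dermis for Plxna1, and 2.54 ± 0.643 FPKM in papilla, 8.79 ± 1.25 in sheath, 2.79 ± 0.646 in stem cells and 7.3 ± 2.16 in interfollicular dermis for Plxna3. Both were lower in papilla than in sheath (adjusted p = 0.000649 and 0.000712) and higher in sheath than in stem cells (adjusted p = 0.0107 and 0.00137). Plxnb2, the plexin with the highest mean in all 4 populations, averaged 19.6 ± 6.87 FPKM in papilla, 35.2 ± 8.23 in sheath, 22.4 ± 2.21 in stem cells and 29.8 ± 11.2 in interfollicular dermis. It passed only between papilla and sheath (-0.85, adjusted p = 0.0333), a call lost under 7 of 21 alternatives (adjusted p 0.0136 to 0.279), among them median-of-ratios scaling (0.279) and leaving out papilla replicate 4 (0.13) or sheath replicate 1 (0.121) or 5 (0.0593).

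Some of the 10 keratinocyte markers differed in the same comparisons as these plexins, by the counts given above for sheath and interfollicular dermis against stem cells. Between papilla and sheath only 1 of the 10 was higher and 2 were lower, and the median fold change of the 10 was -0.24. The 2 lower were Trp63, at 8.86 to 24.8 FPKM in papilla against 98.7 to 147 FPKM in sheath (log2 fold change -2.92, adjusted p = 3.9e-05), and Krt5, at 81.0 to 198 against 366 to 411 FPKM (-1.57, adjusted p = 0.00287). Neither overlapped between these populations, and the share of all genes without such overlap was not counted. The higher one was Krt10, at 571 to 2050 against 11.5 to 101 FPKM, and the sums of all 10 overlapped. The part of keratinocyte transcripts in these differences, and in those of the ephrin and Eph genes given next, was not tested.

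**Figure D3:**
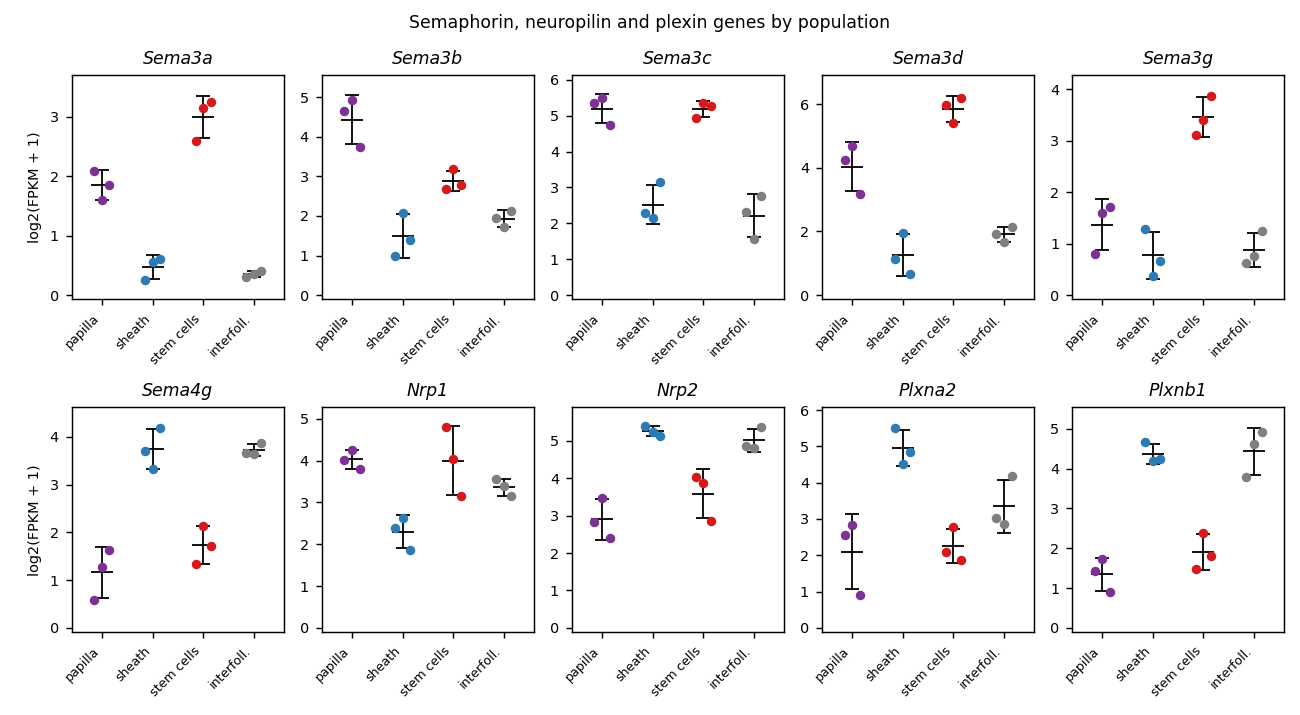
Semaphorin, neuropilin and plexin genes as log2(FPKM + 1) by population, where each point is 1 library and bars are the mean and SD of 3 libraries. Sema3a, Sema3d and Sema3g are highest in stem cells, Sema3b in papilla and Plxna2 in sheath. Sema3c is high in papilla and stem cells, and Sema4g, Nrp2 and Plxnb1 in sheath and interfollicular dermis.

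Most ephrin ligands, which stay on the cell surface, were lower in papilla than in sheath. The 5 ephrin-A genes summed to 29.8 to 53.1 FPKM in papilla, 82.4 to 107 in sheath, 27.2 to 45.5 in stem cells and 63.9 to 79.4 in interfollicular dermis. The 3 ephrin-B genes summed to 19.2 to 27.2, 59.3 to 70.9, 31.5 to 43.4 and 75.2 to 82.0 FPKM in the same order. Of these 8 genes, 4 were higher and 1 was lower in sheath than in stem cells, and 6 were lower and none higher in papilla than in sheath.

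Efna1 (chromosome 3, 89271730 to 89280951), a lipid-anchored ligand of EphA receptors, had 25.5, 35 and 13.4 FPKM in papilla, 50.2, 63.5 and 56 FPKM in sheath, 14.5, 22.5 and 18.6 FPKM in stem cells, and 43.8, 53.3 and 42.3 FPKM in interfollicular dermis. Sheath and interfollicular dermis overlapped above papilla and stem cells. It was higher in sheath than in stem cells (log2 fold change 1.57, SE 0.30, adjusted p = 0.0011), while stem cells lay below interfollicular dermis (log2 fold change -1.29, SE 0.30, adjusted p = 0.00461). Efna5 (chromosome 17, 62602957 to 62881317) had 12.1, 11.6 and 14.5 FPKM in papilla, 22.4, 32.2 and 34.3 FPKM in sheath, 7.32, 14.5 and 8.37 FPKM in stem cells, and 10.3, 12.7 and 9.37 FPKM in interfollicular dermis. Only the sheath libraries stood apart, above all 9 others. Efna5 was higher in sheath than in stem cells (log2 fold change 1.5, SE 0.26, adjusted p = 0.000661), and papilla lay below sheath (log2 fold change -1.14, SE 0.26, adjusted p = 0.00334). Efna4 averaged 0.643 ± 0.30 FPKM in papilla, 3.88 ± 2.03 in sheath, 2.51 ± 1.2 in stem cells and 5.46 ± 0.775 in interfollicular dermis, and was lower in papilla than in interfollicular dermis (log2 fold change -1.99, SE 0.36, adjusted p = 0.00105) and than in sheath (-1.50, adjusted p = 0.00452).

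Efnb1 (chromosome X, 99136061 to 99149022), a transmembrane ligand of EphB receptors, had 8.32, 9.59 and 9.08 FPKM in papilla, 29.3, 31.7 and 39 FPKM in sheath, 17.1, 18.6 and 24 FPKM in stem cells, and 28.5, 38.2 and 32.4 FPKM in interfollicular dermis. Papilla lay below all other libraries, stem cells came next, and sheath and interfollicular dermis overlapped above them. Efnb1 was lower in papilla than in stem cells (log2 fold change -1.05, SE 0.20, adjusted p = 0.0079), than in sheath (-1.77, adjusted p = 2.92e-05) and than in interfollicular dermis (-1.76, adjusted p = 4.72e-05). The smaller difference between sheath and stem cells (0.72, adjusted p = 0.0123) was lost after median-of-ratios scaling (adjusted p = 0.0671), without sheath replicate 5 or without stem cells replicate 1 (0.058 each; range 0.00979 to 0.0671 over 21 alternatives). Efnb2 (chromosome 8, 8617235 to 8661242), known from arteries, had 11.8, 16.4 and 7.27 FPKM in papilla, 32, 27.3 and 31.3 FPKM in sheath, 10.6, 13.3 and 11.5 FPKM in stem cells, and 46.3, 34.9 and 48.8 FPKM in interfollicular dermis. Interfollicular dermis was highest, sheath next, and papilla and stem cells overlapped below. Efnb2 was lower in papilla than in interfollicular dermis (-1.84, adjusted p = 0.000184) and lower in stem cells than in interfollicular dermis (-1.78, adjusted p = 0.000227). Efnb3 averaged 1.41 ± 1.34 FPKM in papilla, 0.527 ± 0.213 in sheath, 4.59 ± 2.95 in stem cells and 1.27 ± 0.743 in interfollicular dermis, and was lower in sheath than in stem cells (-1.75, adjusted p = 0.0086). Efna3 was listed at 0 in papilla replicate 4 and at 3.13 and 4.42 FPKM in the other 2 papilla libraries, and passed in no comparison.

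Among EphA receptors, which prefer ephrin-A ligands, Epha1 and Epha2 were higher in sheath and interfollicular dermis, and Epha3 was highest in stem cells. Epha2 (chromosome 4, 141301221 to 141329384), a receptor of epidermal keratinocytes, had 33.4, 25.2 and 11.9 FPKM in papilla, 57.4, 44.5 and 47.6 FPKM in sheath, 13.2, 18.4 and 10.9 FPKM in stem cells, and 48.3, 55.3 and 77.3 FPKM in interfollicular dermis. Sheath and interfollicular dermis overlapped above all libraries of papilla and stem cells. It was higher in sheath than in stem cells (log2 fold change 1.77, SE 0.33, adjusted p = 0.00107), while stem cells lay below interfollicular dermis (log2 fold change -2.02, SE 0.33, adjusted p = 0.00056). Epha1 (chromosome 6, 42358487 to 42373314) had 4.98, 10.1 and 3.44 FPKM in papilla, 25.4, 22.8 and 35.9 FPKM in sheath, 0, 9.63 and 4.88 FPKM in stem cells, and 23, 23.9 and 28.5 FPKM in interfollicular dermis. It was listed at 0 in stem cells replicate 1, and the sheath and interfollicular dermis libraries lay above all others. Epha1 was higher in sheath than in stem cells (2.85, adjusted p = 0.00381), and the fold change was 1.85 when the 0 was treated as missing. It was lower in stem cells than in interfollicular dermis (-2.71, adjusted p = 0.00607), or -1.72 without the 0, and Zyx, at up to 64.0 FPKM, overlaps its locus.

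Epha3 (chromosome 16, 63543532 to 63864175) had 3.9, 2.04 and 4.65 FPKM in papilla, 0.959, 0.803 and 0.174 FPKM in sheath, 13.6, 12.8 and 26.6 FPKM in stem cells, and 0.225, 0.165 and 0.38 FPKM in interfollicular dermis. The stem cell libraries were highest, papilla came next, and sheath and interfollicular dermis overlapped near the bottom of the scale. Epha3 was lower in papilla than in stem cells (log2 fold change -2.01, SE 0.35, adjusted p = 0.00407), lower in sheath than in stem cells (log2 fold change -3.46, SE 0.35, adjusted p = 1.24e-05) and higher in stem cells than in interfollicular dermis (log2 fold change 3.82, SE 0.35, adjusted p = 5.77e-06). Epha4 averaged 20.0 ± 2.38 FPKM in papilla, 15.5 ± 0.844 in sheath, 13.1 ± 3.27 in stem cells and 21.4 ± 2.52 in interfollicular dermis. It passed only as lower in stem cells than in interfollicular dermis (-0.68, adjusted p = 0.021), which was lost under 5 of 21 alternatives (adjusted p 0.0106 to 0.086): median-of-ratios scaling (0.0747), leaving out stem cells replicate 1 (0.0823) or 2 (0.086), or interfollicular dermis replicate 2 (0.0575) or 6 (0.0559).

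Of the 5 EphB receptors, which prefer ephrin-B ligands, Ephb2 and Ephb3 passed in at least 1 comparison. Ephb2 (chromosome 4, 136647536 to 136836326) had 2.58, 1.93 and 5.44 FPKM in papilla, 0.132, 0.0134 and 0.384 FPKM in sheath, 6.31, 5.74 and 7.91 FPKM in stem cells, and 0.527, 0.591 and 0.48 FPKM in interfollicular dermis. Stem cells lay above papilla, and both lay above sheath and interfollicular dermis. Ephb2 was lower in sheath than in stem cells (log2 fold change -2.70, SE 0.31, adjusted p = 3.09e-05), higher in papilla than in sheath (log2 fold change 1.80, SE 0.31, adjusted p = 0.000482) and higher in stem cells than in interfollicular dermis (2.31, adjusted p = 0.000117). Its difference between papilla and stem cells missed the threshold (-0.90, adjusted p = 0.0898). Ephb3 averaged 3.62 ± 1.14 FPKM in papilla, 7.96 ± 2.4 in sheath, 8.5 ± 1.39 in stem cells and 5.41 ± 1.26 in interfollicular dermis. Ephb4, a receptor of veins, averaged 5.55 ± 1.19 FPKM in papilla, 9.94 ± 2.84 in sheath, 8.06 ± 1.67 in stem cells and 6.08 ± 1.91 in interfollicular dermis, and like Ephb1 and Ephb6 passed in no comparison.

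**Figure D4:**
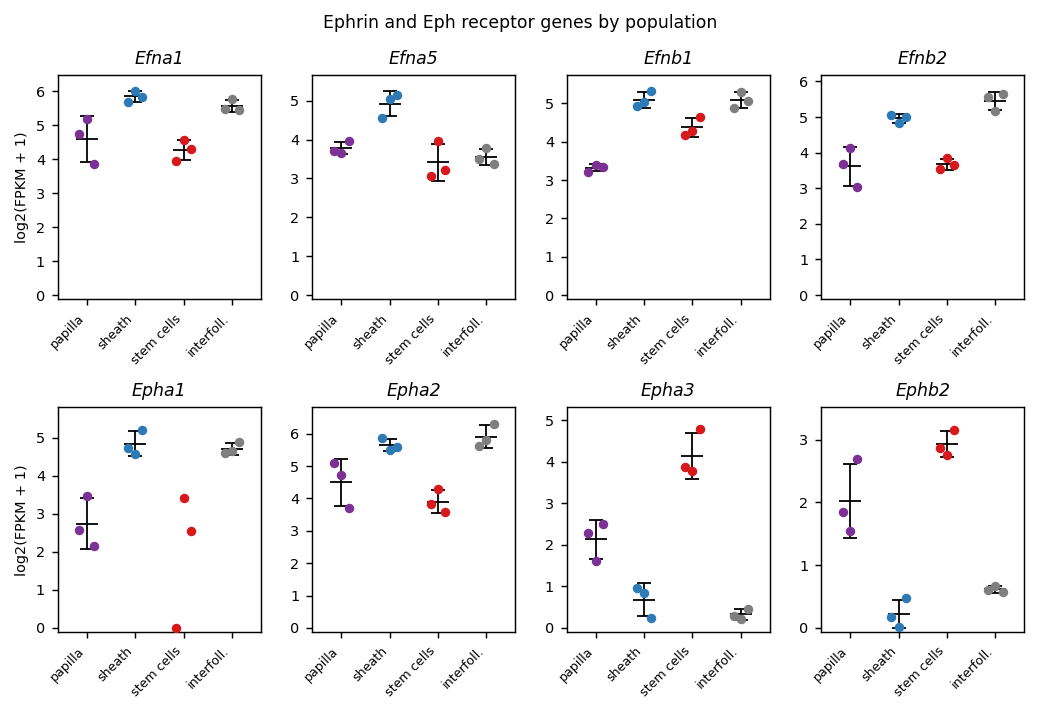
Ephrin and Eph receptor genes as log2(FPKM + 1) by population, where each point is 1 library and bars are the mean and SD of 3 libraries, left out for Epha1 in stem cells, where a library is listed at 0. Efna1, Efnb1, Efnb2, Epha1 and Epha2 are high in sheath and interfollicular dermis, and Epha3 and Ephb2 in stem cells.

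Across the 6 comparisons, the 11 families were counted against all 12774 genes. Between papilla and stem cells 11 of the 52 genes passed (21.2%), against 8.69% of all genes, 1 higher (2.31% of all genes were) and 10 lower (6.38% of all genes). The 10 were Slit2, Slit3, Ntn1, Ntn4, Sema3a, Sema3d, Sema3g, Epha3, Ephb3 and Efnb1, so they include both tested Slits and both tested netrins but none of the 7 tested plexins, 3 Robos or 2 neuropilins. The median fold change was -0.22 for the 52 genes and -0.25 for all genes. After median-of-ratios scaling, which brought the all-gene median to -0.07, 2 genes were higher and 8 lower. Of all genes 449 were then higher and 512 lower, against 295 and 815 before it.

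Of these 11 calls, 7 held under all 22 alternatives: Slit2, Slit3, Ntn1, Ntn4, Sema3g, Epha3 and Efnb1. The same 7 passed in a fit of the 6 papilla and stem cell libraries alone, without the libraries labelled sheath and interfollicular dermis. Sema3b was lost in that fit (adjusted p = 0.0586) and without papilla replicate 1 or 2 (0.0578 and 0.059) or stem cells replicate 1 or 4 (0.0719 and 0.0548), with a range of 0.00454 to 0.0719. Sema3d (-1.81, adjusted p = 0.0163) was lost in that fit (0.0627), with a pseudocount of 0.1 (0.0516) and without stem cells replicate 1 (0.0616) or 4 (0.0596), with a range of 0.0126 to 0.0776. Sema3a (-1.15, adjusted p = 0.0194) was lost in that fit (0.0771), after median-of-ratios scaling (0.0532) or quantile normalization (0.0838), with a pseudocount of 0.1 (0.0998) and without papilla replicate 2 (0.0567) or stem cells replicate 2 (0.0764) or 4 (0.0721), with a range of 0.0123 to 0.0998. Ephb3 (-1.06, adjusted p = 0.0375) was lost under 12 of the 22 alternatives (range 0.0299 to 0.13), among them that fit (0.0843), median-of-ratios scaling (0.0934), quantile normalization (0.0939), no filter (0.0592) and leaving out papilla replicate 2 (0.106) or 4 (0.0554), any stem cell library (0.07 to 0.13) or interfollicular dermis replicate 2 (0.052).

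Papilla and stem cells share their replicate numbers, which are not shown to mark pairs. With the replicate block in the 12 libraries 11 genes passed and Ephb3 was lost (adjusted p = 0.0511). With the replicate block in the 6 libraries alone 8 passed, and Sema3d (0.0776), Sema3a (0.098) and Ephb3 (0.105) were lost. Of all genes, 388 were higher and 946 lower with the block in 12 libraries, against 295 and 815 without it. In the 6 libraries 208 were higher and 450 lower with the block, against 118 and 394 without it.

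**Figure D5:**
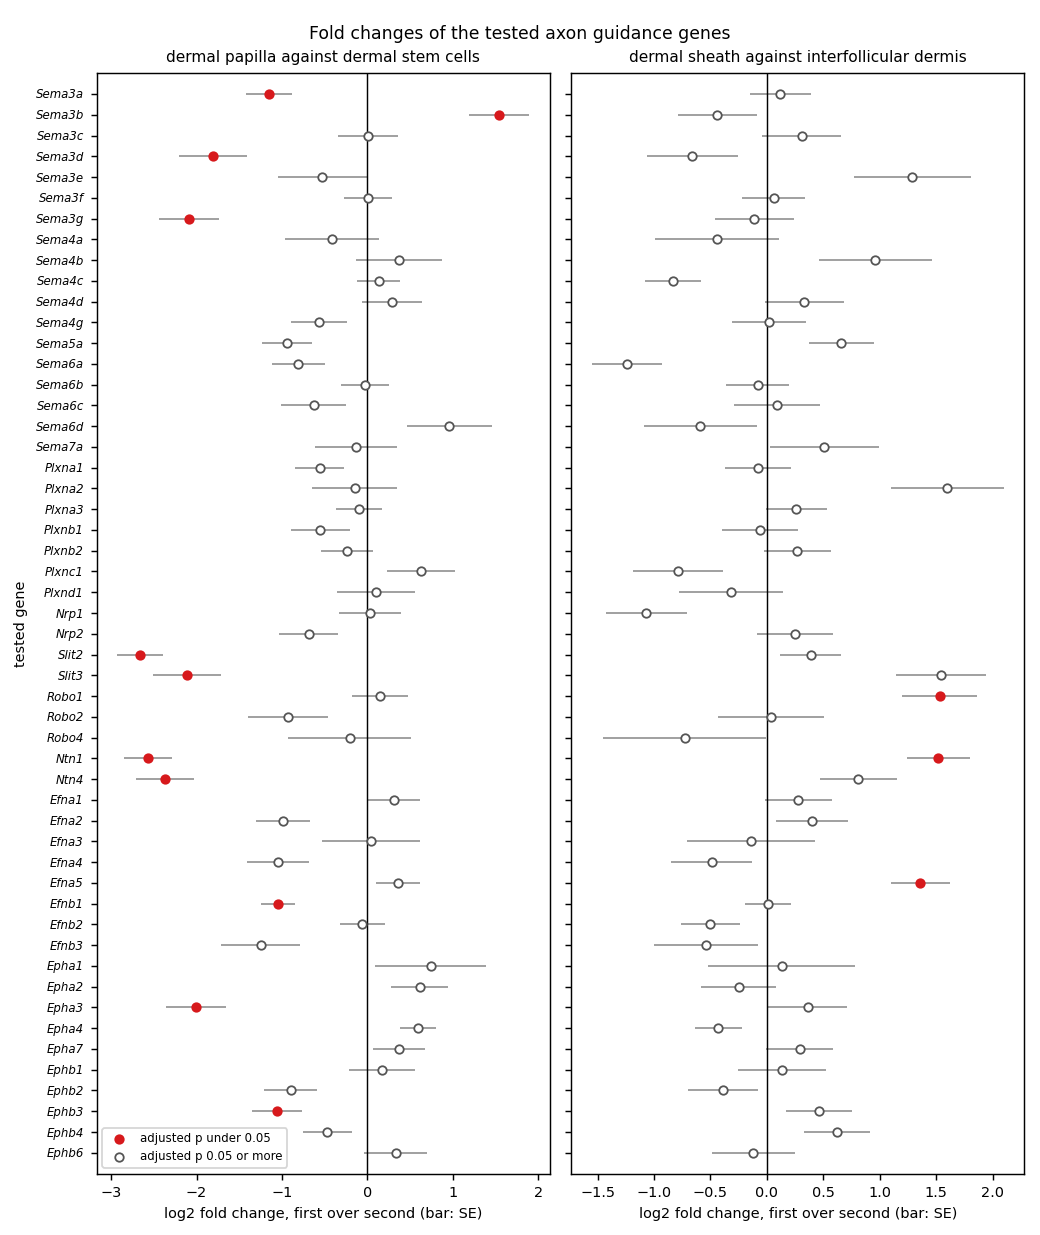
Fold changes of the 52 tested genes on the log2(FPKM + 1) scale, with bars for the SE, for papilla against stem cells (left) and sheath against interfollicular dermis (right). Filled points passed at an adjusted p under 0.05: 11 genes on the left, 10 of them below 0, and 3 on the right, all above 0.

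Between sheath and stem cells 30 of 52 passed (57.7%), against 43.9% of all genes, with 14 higher (24.3% of all genes) and 16 lower (19.6% of all genes). The 14 were Robo1, Nrp2, Plxna1, Plxna2, Plxna3, Plxnb1, Sema4d, Sema4g, Efna1, Efna5, Efnb1, Efnb2, Epha1 and Epha2. The 16 were Slit2, Slit3, Ntn1, Ntn4, Robo2, Nrp1, Plxnd1, Sema3a, Sema3b, Sema3c, Sema3d, Sema3g, Sema6a, Efnb3, Epha3 and Ephb2. The median fold change was 0.07 for the 52 genes and 0.13 for all genes. Of the 30 calls 28 held under all alternatives, the exceptions being Efnb1, given above, and Plxnd1 (-1.22, adjusted p = 0.0464), a receptor of Sema3e, which was lost under 11 of 21 (range 0.0114 to 0.2), including without papilla replicate 1 (0.0572), 2 (0.0555), sheath replicate 4 (0.0986), 5 (0.2), stem cells replicate 1 (0.147), 2 (0.122) or interfollicular dermis replicate 2 (0.0603), and also in the 6 libraries compared (0.0662), with no filter (0.107) and with a pseudocount of 0.1 (0.0571). With the replicate block Plxnd1 was lost as well (0.193).

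Between papilla and sheath 33 of 52 passed (63.5%), against 49.8% of all genes, with 12 higher (16.4% of all genes) and 21 lower (33.4% of all genes). After median-of-ratios scaling the all-gene median was 0.00 in place of -0.36, and the split became 16 higher and 15 lower. Of all genes 2853 were then higher and 2645 lower, against 2094 and 4271 before it. The median of the 52 genes was -0.40. The largest fold changes upward were those of Sema3b, Sema3d (2.79, adjusted p = 0.000158) and Sema3c, and downward those of Plxnb1, Plxna2 (-2.86, adjusted p = 0.000595) and Sema4g. Of the 33 calls 21 held under all alternatives. Those of Epha2 (adjusted p = 0.089) and Sema5a (0.0763) were lost only after that scaling, out of ranges of 0.0045 to 0.089 and 0.00829 to 0.0763. Those of Robo2 and Sema6d were lost only when a library was left out: Robo2 without papilla replicate 4 (0.0513) or sheath replicate 5 (0.061), and Sema6d without sheath replicate 4 (0.0535) or 5 (0.0701). Their ranges were 0.00582 to 0.061 and 0.00271 to 0.0701. Epha1 was lost without papilla replicate 4 (0.0573) or sheath replicate 5 (0.0602), and also with no filter (0.0531) and with a pseudocount of 0.1 (0.142) (range 0.000393 to 0.142). Ephb3 was lost without papilla replicate 2 (0.0581), sheath replicate 1 (0.0584) or 5 (0.0645), and also in the 6 libraries compared (0.0514), after median-of-ratios scaling (0.136) and after quantile normalization (0.0918) (range 0.0068 to 0.136), and Ntn4 without papilla replicate 1 (0.158), sheath replicate 1 (0.101), 4 (0.0569) or 5 (0.0752), and also in the 6 libraries compared (0.0693), after median-of-ratios scaling (0.184), with no filter (0.069) and after quantile normalization (0.147) (range 0.0235 to 0.184). Plxnc1, a receptor of the class 7 semaphorin, was lost without papilla replicate 1 (0.0668), 4 (0.108), sheath replicate 1 (0.0523), 4 (0.0783) or 5 (0.087), and also with no filter (0.069), with a pseudocount of 0.1 (0.0511) and after quantile normalization (0.0545) (range 0.0179 to 0.108). Plxnd1 was lost without papilla replicate 1 (0.0589), 2 (0.0535), 4 (0.0685), sheath replicate 4 (0.0684) or 5 (0.139), and also with no filter (0.0744) (range 0.0072 to 0.139). Sema4d was lost without papilla replicate 1 (0.0593), 4 (0.139), sheath replicate 1 (0.0764), 4 (0.0737), 5 (0.0872) or stem cells replicate 2 (0.0502), and also in the 6 libraries compared (0.0871), after median-of-ratios scaling (0.158), with no filter (0.0792), with a pseudocount of 0.1 (0.0501) and after quantile normalization (0.1) (range 0.00945 to 0.158). With the replicate block Ephb3 (0.0824), Ntn4 (0.0877), Plxnc1 (0.0808) and Plxnd1 (0.13) were lost as well. Sema3e and Plxnb2 are described above.

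Between stem cells and interfollicular dermis 24 of 52 passed (46.2%), against 37.6% of all genes, with 12 higher (17.9% of all genes) and 12 lower (19.7% of all genes). The 12 higher were Slit2, Slit3, Ntn1, Ntn4, Robo2, Sema3a, Sema3b, Sema3c, Sema3d, Sema3g, Epha3 and Ephb2. The 12 lower were Robo1, Nrp2, Plxna1, Plxna3, Plxnb1, Sema4g, Efna1, Efnb1, Efnb2, Epha1, Epha2 and Epha4. The median fold change was -0.05 for the 52 genes and -0.14 for all genes. Of the 24 calls 19 held under all alternatives. Sema3b (0.96, adjusted p = 0.0469) was lost without papilla replicate 1 (0.0554), sheath replicate 5 (0.0588), stem cells replicate 1 (0.0752), 2 (0.145), 4 (0.0809), interfollicular dermis replicate 1 (0.0983), 2 (0.131) or 6 (0.0575), and also with no filter (0.0867) and with a pseudocount of 0.1 (0.0578) (range 0.0177 to 0.145). Robo1 (-0.91, adjusted p = 0.0449) was lost without papilla replicate 2 (0.0522), sheath replicate 1 (0.0573), 4 (0.0569), 5 (0.0586), stem cells replicate 1 (0.181), 2 (0.0736), interfollicular dermis replicate 1 (0.111) or 6 (0.13), and also after median-of-ratios scaling (0.0875), with no filter (0.0873), with no trend (0.0551) and with a pseudocount of 0.1 (0.0517) (range 0.0193 to 0.181). Efnb1 was lost without stem cells replicate 1 (0.0721), 2 (0.0525) or interfollicular dermis replicate 2 (0.0628), and also after median-of-ratios scaling (0.0512) (range 0.0124 to 0.0721). Epha4 is given above, and Plxna1 was lost with the replicate block alone (0.0544, range 0.00352 to 0.0544). The block also ended the calls of Sema3b (0.0709) and Robo1 (0.0785).

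Between papilla and interfollicular dermis 23 of 52 passed (44.2%), close to the 42.3% of all genes, with 11 higher (13.7% of all genes) and 12 lower (28.6% of all genes). After median-of-ratios scaling the all-gene median was -0.03 in place of -0.32, with 14 higher and 9 lower genes, and quantile normalization gave 14 higher and 11 lower. Of all genes that scaling gave 2457 higher and 2206 lower, and quantile normalization 2195 and 2721. Without either, 1746 were higher and 3654 lower. The median fold change was -0.11 for the 52 genes and -0.32 for all genes. The 11 higher were Sema3a, Sema3b, Sema3c, Sema3d, Slit2, Slit3, Ntn1, Robo2, Epha3, Epha7 and Ephb2. Of the 23 calls 18 held under all alternatives. The replicate block ended the calls of Epha1 (adjusted p = 0.0589) and Epha7 (0.0907), besides the losses given next. Efna1 was lost without papilla replicate 4 (0.06) or interfollicular dermis replicate 2 (0.066), and also in the 6 libraries compared (0.0585) and after median-of-ratios scaling (0.11) (range 0.00479 to 0.11), and Efna2 without papilla replicate 1 (0.152), 2 (0.0646), sheath replicate 4 (0.056), stem cells replicate 1 (0.0557), 2 (0.0621), 4 (0.0531), interfollicular dermis replicate 1 (0.101) or 2 (0.171), and also in the 6 libraries compared (0.1), after median-of-ratios scaling (0.139), with no filter (0.0899) and after quantile normalization (0.11) (range 0.0101 to 0.171). Epha1 was lost without papilla replicate 1 (0.0714), 4 (0.0848), interfollicular dermis replicate 1 (0.0605), 2 (0.0645) or 6 (0.0691), and also after median-of-ratios scaling (0.0627), with no filter (0.0767) and with a pseudocount of 0.1 (0.18) (range 0.000853 to 0.18), Epha7 without papilla replicate 2 (0.0517), 4 (0.076), interfollicular dermis replicate 1 (0.06) or 6 (0.0546) (range 0.0137 to 0.0907) and Robo2 without papilla replicate 4 (0.0523) or interfollicular dermis replicate 1 (0.0609) (range 0.00555 to 0.0609).

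Between sheath and interfollicular dermis 3 of 52 passed (5.77%), against 2.26% of all genes, and all 3 were higher in sheath (0.939% of all genes were). They were Robo1 (log2 fold change 1.53, SE 0.33, adjusted p = 0.0296), Ntn1 (log2 fold change 1.52, SE 0.28, adjusted p = 0.0141) and Efna5 (log2 fold change 1.36, SE 0.26, adjusted p = 0.018). In each the 3 libraries of both populations did not overlap. These genes were picked by the test on the same libraries, and the share of all genes without such overlap was not counted. None of the 3 held under all 21 alternatives, with ranges of 0.0128 to 0.129 for Robo1, 0.00801 to 0.0836 for Ntn1 and 0.0118 to 0.121 for Efna5. All 3 were lost with the replicate block, at 0.129 for Robo1, 0.0836 for Ntn1 and 0.121 for Efna5, though the replicate numbers are not shown to pair these libraries. Robo1 was lost without sheath replicate 1 (0.0973), 4 (0.0694), 5 (0.117), interfollicular dermis replicate 1 (0.0968) or 2 (0.129), and also with no filter (0.0729). Ntn1 was lost without sheath replicate 1 (0.0576), 5 (0.0777) or interfollicular dermis replicate 1 (0.0745), and also in the 6 libraries compared (0.0764). Efna5 was lost without sheath replicate 4 (0.0643), 5 (0.0944) or interfollicular dermis replicate 1 (0.0773). The median fold change was 0.08 for the 52 genes and 0.05 for all genes.

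Other receptors and ligands act in the same pathways. In a list of 20 further guidance genes 17 were tested, and 6 were higher and 1 lower in papilla than in stem cells. Dcc, the netrin receptor, averaged 5.89 ± 4.79 FPKM in papilla, 0.39 ± 0.243 in sheath, 0.488 ± 0.194 in stem cells and 1.01 ± 0.158 in interfollicular dermis, and was higher in papilla than in stem cells (log2 fold change 1.99, adjusted p = 0.0098). Also higher there were Unc5c, a netrin receptor that mediates repulsion (1.61, adjusted p = 0.029), Draxin, a ligand of Dcc (1.63, adjusted p = 0.0244), and Met, a receptor that can pair with plexin B1 (1.67, adjusted p = 0.0417). In the same comparison 3 of 7 tested Schwann cell markers, 3 of 6 melanocyte markers and 3 of 10 keratinocyte markers (Cdh1, Epcam and Perp) were higher and none was lower, with the Schwann cell and melanocyte sums as given above and keratinocyte sums of 1220 to 3720 FPKM in papilla against 710 to 1380 FPKM in stem cells. Their part in these differences was not tested.

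Unc5b, another netrin receptor, averaged 2.75 ± 1.22 FPKM in papilla, 1.89 ± 0.74 in sheath, 2.55 ± 0.638 in stem cells and 23.0 ± 2.43 in interfollicular dermis. Its level was lower in sheath than in interfollicular dermis (-3.09, adjusted p = 0.000443) and lower in stem cells than in interfollicular dermis (-2.77, adjusted p = 2.26e-05). Neo1, which encodes neogenin, averaged 13.7 ± 1.72, 46.0 ± 11, 14.8 ± 3.49 and 30.5 ± 8.45 FPKM in papilla, sheath, stem cells and interfollicular dermis, and was higher in sheath than in stem cells (1.57, adjusted p = 0.000422). By mean level, Ntn1 was highest in stem cells and none of these 4 netrin receptors was. Flrt2 and Flrt3 encode membrane proteins that bind Unc5 receptors. Flrt3 averaged 97.6 ± 11.9 FPKM in sheath against 38.0 ± 4.39 FPKM in interfollicular dermis (1.34, adjusted p = 0.0103), and Flrt2 22.5 ± 8.46 against 3.29 ± 0.588 FPKM (2.41, adjusted p = 0.00102). Flrt2 was lower in papilla, at 13.7 ± 1.35 FPKM, than in stem cells, at 33.4 ± 11.5 FPKM (-1.18, adjusted p = 0.0229).

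Of 43 intracellular effectors of these receptors 38 were tested. Between papilla and stem cells none was higher (2.31% of all genes were) and 5 were lower (6.38% of all genes). Between sheath and stem cells 8 were higher (24.3% of all genes) and 10 lower (19.6% of all genes). Between sheath and interfollicular dermis 1 was higher (0.939% of all genes) and 1 lower (1.32% of all genes). The genes named next are examples from this list, and no result is drawn on the list as a set. Dpysl2 and Dpysl3, collapsin response mediator genes of semaphorin signalling, were both lower in sheath than in stem cells. Dpysl3 averaged 20.0 ± 4.33 FPKM in papilla, 1.42 ± 0.0512 in sheath, 22.8 ± 1.72 in stem cells and 4.41 ± 0.869 in interfollicular dermis (sheath against stem cells -3.29, adjusted p = 8.4e-07). Dpysl2 gave -2.86 in that comparison (adjusted p = 3.09e-05). Mical2, an actin-oxidising enzyme of the family that acts below plexins, averaged 4.94 ± 0.965 FPKM in papilla against 22.9 ± 3.91 FPKM in stem cells (-2.01, adjusted p = 0.000867). Srgap1, a GTPase-activating protein that acts below Robo receptors, averaged 9.75 ± 3.87 FPKM in sheath against 2.91 ± 0.404 FPKM in stem cells (1.40, adjusted p = 0.00178).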

How the data were processed

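RNA from 12 sorted cell samples, 3 per population, was sequenced as libraries made for the SOLiD platform. The authors deposited 1 table of FPKM, fragments scaled to transcript length and library size, in 1 column per library. TopHat2 2.0.13, SAMtools, Cufflinks 2.2.1 and mm10 are named, without roles, per the submitters' processing notes, and whether strand was used is not given in the sources used here. The table holds no counts, and whole reads could not be recovered: the relative depth estimated from low values ran from 0.633 to 1.93 between libraries, but the commonest ratio held only 26.1% to 35.6% of genes, and no counting interval is given.

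From there, log2(FPKM + 1) of the 12774 genes at 1 FPKM or more in at least 3 libraries was fitted with limma 3.58.1 in R 4.3.3, with 4 population means, a mean-variance trend, 8 residual and 4.61 prior degrees of freedom. An F test over the populations and 6 two-sided contrasts were adjusted by Benjamini-Hochberg over all genes tested, and every adjusted p in the text is from limma, with a threshold of 0.05. Fold changes are log2 differences with their SE, means are given ± SD (n = 3), and "± SD" is left out where a library is listed at 0. The procedure was tested on simulated data.

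The labels do not say whether the 3 libraries of a population are different animals, and p-values therefore reflect only the spread between libraries, which may be technical. Papilla and stem cells share their replicate numbers, but the labels do not say what a number marks. Deviations of the 3 same-numbered pairs correlated at 0.241 to 0.389. Differently numbered papilla and stem cell pairs gave -0.333 to 0.125, and all 42 differently numbered pairs of populations -0.333 to 0.445. Between papilla and stem cells, every same-numbered pair thus lay above every differently numbered pair. The value of 0.445 was that of sheath replicate 1 with interfollicular dermis replicate 6. Because the labels do not say what a number marks, pairing is not established, and the replicate block is given only as an alternative. Alternatives were another pseudocount (0.1), no filter, a filter at 5 FPKM, median-of-ratios and quantile scaling, zeros as missing, no trend, only the 6 libraries compared, a replicate block and leaving out each library. The genes and lists were chosen with earlier results of these data known. Named genes are the 3 of each family with the highest population mean and the 3 with the largest called fold change in each direction of each comparison, up to 3 called genes per comparison and direction in the lists of other guidance genes and effectors, and others named for their place in a count, chosen after their values were seen. The replicate block within the 6 papilla and stem cell libraries was added after seeing the data. Gene positions are from RefSeq, GRCm38.p6.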

Additional observations from a re-analysis of the deposited data

How the results depend on the processing

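Among the 52 genes, no fold change of a called gene changed sign under any alternative run. Of the counts of genes passing, that for papilla against stem cells was 7 when only those 6 libraries were fitted, against 11 in all 12. Over all genes that fit gave 118 higher and 394 lower, against 295 and 815. For sheath against interfollicular dermis the count was 1 with the replicate block, against 3 without it: Robo1, Ntn1 and Efna5 were all lost and Plxna2 was gained. Over all genes the block gave 81 higher and 69 lower there, against 120 and 169. Both changes thus came with lower counts over all genes. The first fit has fewer samples, and the cause of neither change was tested. Leaving out 1 library at a time gave 31 to 37 genes by the F test, 8 to 13 for papilla against stem cells, 28 to 32 for sheath against stem cells, 23 to 34 for papilla against sheath, 20 to 28 for stem cells against interfollicular dermis, 19 to 24 for papilla against interfollicular dermis and 0 to 4 for sheath against interfollicular dermis. In the last comparison the count was 0 without sheath replicate 5 or interfollicular dermis replicate 1, and 1 without sheath replicate 1. Over all genes these fits gave 37 higher and 66 lower, 48 and 66, and 76 and 91, in that order. With all 12 libraries 120 were higher and 169 lower. Over the 52 genes, their tests and the alternatives, 6276 values kept their side of the threshold, 187 kept the direction and lost the call, and 75 kept the direction and gained one. Outside the papilla and stem cell pairs, same-numbered samples correlated at -0.272 to 0.294 over 9 pairs, and they too share only a number. With the replicate block 31 genes passed for sheath against stem cells, 29 for papilla against sheath, 22 for stem cells against interfollicular dermis and 24 for papilla against interfollicular dermis, against 30, 33, 24 and 23 without it. Over all genes, in the same order, the block gave 2734 higher and 2295 lower, 1892 and 3724, 2497 and 2319, and 2099 and 3376. Without it they were 3105 and 2502, 2094 and 4271, 2287 and 2513, and 1746 and 3654. The filter at 5 FPKM left some genes untested. FPKM without counts leave the depth behind each weakly expressed gene unknown, and values near 0 carry the least information.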
